A study of Saccharomyces cerevisiae with 6 samples.

Results

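The cell wall genes described here are 46 genes chosen by name for their role in making, remodeling or guarding the wall of Saccharomyces cerevisiae: enzymes of glucan and chitin synthesis, enzymes that cross-link or cut these polymers, mannoproteins of the outer layer, and the sensors and kinase of the cell wall integrity pathway. The rule names the genes and uses no measured value. A named probe was found for 45 of the 46 genes, out of 6248 features (genes and unnamed probes) tested, and HSP150, which encodes a mannoprotein of the PIR family, had none. The RNA came from 6 cultures, 3 of the wild type strain 59A and as many, 3, of 59A PDR8-S288c, all fermenting the synthetic grape must SM425 supplemented with p-aminobenzoic acid and iron(III) chloride, and all sampled in stationary phase at 66 g/l CO2 released, 70% of fermentation progress. 59A is a MATa haploid derivative of the industrial wine strain EC1118. In 59A PDR8-S288c its PDR8 gene, which encodes a transcription factor of pleiotropic drug resistance, was exchanged for the allele of the laboratory strain S288c. By the methods the exchange left a loxP-kanMX4-loxP cassette in the terminator of PDR8 in this strain only, so effects of the allele and of the cassette cannot be told apart here, and the number of independent clones is not given in the sources used here. The comparison asks which genes respond to the PDR8 allele during fermentation.

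The yeast wall is a mesh. Chains of beta-glucan, drawn out by a synthase in the plasma membrane, carry the load, chitin reinforces the bud neck and the lateral wall, and mannoproteins cover the outside, most of them anchored through a GPI remnant to a second, branched type of beta-glucan and the PIR proteins linked directly to the main chains. When the wall is strained, sensors of the Wsc and Mid2 type activate Rho1p, which switches on both the glucan synthase and, through protein kinase C and a MAP kinase cascade ending in Slt2p, the transcription factor Rlm1p and its wall genes.

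Each value is a deposited log2 spot-median intensity from a one-color array, which the authors had quantile-normalized, and for which 5.3 marks background and 16 saturation. Array medians were between 8.06 and 8.07 on all 6 arrays. The wild type replicate 3 array had no value for 2066 of 6271 probes, among them 17 of the 45 wall genes, and these compare 3 cultures with 2. Probes differ in brightness for the same amount of RNA, so values were compared between strains and not between genes. QDR2, a drug transporter gene under Pdr8p, separated the strains as labeled, at 7.57 to 7.68 in wild type cultures against 9.71 to 9.96 in 59A PDR8-S288c. PDR8 itself was at 7.21 and 7.26 in wild type cultures, with no value in replicate 3, against 6.70 to 6.77 in 59A PDR8-S288c. The difference came to -0.49 log2 units (SE 0.05, limma adjusted p = 0.026). Leaving out wild type replicate 3 thus removed no value of PDR8. Leaving out replicate 1 or 2 left 1 wild type value, with differences of -0.52 and -0.47. The call was lost without 59A PDR8-S288c replicates 1 and 2 (adjusted p = 0.107 and 0.165 from limma) and kept without replicate 3 (0.0441). It was also lost with the replicate numbers of the titles or descriptions as blocks (0.0589 and 0.139). With slide position as a covariate the difference of PDR8 was -0.47, and this contrast too depended on 1 wild type value. No call of PDR8 is given for the fits that depend on 1 wild type value, so the call is not shown to hold there. The match of its probe to each allele was not examined. The strains also differed in a marker of growth, since the mean over 87 ribosomal protein genes was 9.69 to 9.83 in wild type cultures against 9.30 to 9.47 in 59A PDR8-S288c, and 47 of 135 such genes were lower by the test used here. That count was 0 without wild type replicate 2 or without 59A PDR8-S288c replicate 1 or 2, 8 without wild type replicate 1 and 40 without either remaining culture. It was 14 with the replicate numbers of the titles as blocks and 0 with those of the descriptions. In all these fits 131 to 134 of the 135 lay below 0. With slide position as a covariate their median log2 fold change was -0.33, against -0.38 without it. That fit leaves the strain contrast to depend on 1 wild type culture, so no count of these genes is given for it. The lower count is thus not shown to hold with slide position. The part of this shift in the values of the wall genes was not tested. All 4 ASP3 genes, which mark S288c, stayed near background in both strains. Of 6 genes that mark a cells none passed the test. At an unadjusted p under 0.05 from limma 2 of them were lower, MFA1 (-0.38) and AGA2 (-0.26), where 8.1% of all features were lower. STE6 had the opposite sign (0.11). The mean over the 3 measured on all arrays, MFA1, BAR1 and STE6, was 9.50 to 9.59 in wild type cultures against 9.34 to 9.46 in 59A PDR8-S288c. Of 4 genes that mark alpha cells, 3 were within 1 log2 unit of background, and SAG1 was at 7.11 to 7.33 in wild type cultures against 7.08 to 7.10.

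None of the 45 wall genes passed an adjusted p under 0.05 from limma, where 1.54% of all features passed (96 of 6248, 32 or 0.512% higher and 64 or 1.02% lower in 59A PDR8-S288c). At an unadjusted p under 0.05 there were 11 wall genes (24.4%), 6 higher and 5 lower, against 18.1% of all features, 9.99% higher and 8.1% lower. Their median log2 fold change was -0.0047, with 22 genes above 0 and 23 below, and the median of all features was 0.0065. Log2 fold changes give 59A PDR8-S288c over wild type, positive where the signal was higher with the S288c allele. The differences ran from -0.43 for CWP1 to 0.31 for KRE9, while 68 of all features differed by more than 0.5. The 95% confidence interval of the difference lay within 0.5 log2 units of 0 for 43 of the 45 genes and within 1 log2 unit for all of them. The lowest adjusted p of a wall gene was 0.0809 from limma, for PIR1. Of the 28 wall genes measured in all cultures, 5 had all 3 cultures of 59A PDR8-S288c above the 3 of the wild type and 3 had them all below (28.6%), where 13.5% and 11.1% of the features with 6 values did, or 24.6% in both directions. In RNA from whole cultures, fewer cells of a kind and less RNA per cell cannot be told apart. The plot of the intervals by role shows where the differences lie.

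**Figure D1:**
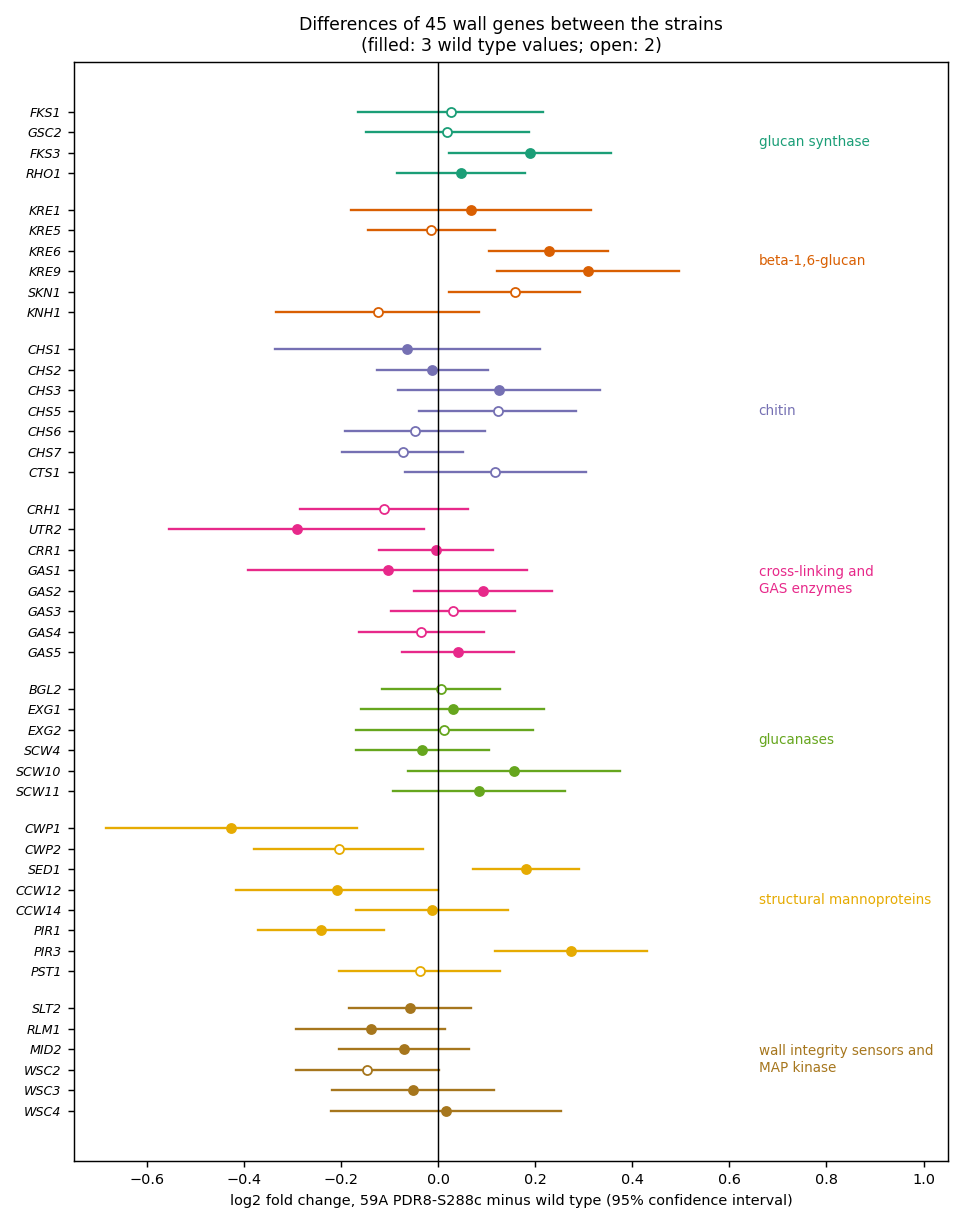
Log2 fold change (horizontal axis, 59A PDR8-S288c minus wild type) of the 45 measured wall genes, grouped and colored by role. Points are differences and lines their 95% confidence intervals from limma, filled points having 3 wild type values and open points 2; the differences ran from -0.43 to 0.31, and CWP1, KRE9 and UTR2 lie farthest from 0.

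The genes of the main glucan synthase differed by less than the spread between cultures. FKS1, the catalytic subunit of growing cells, gave 9.49 and 9.49 in wild type cultures against 9.61, 9.56 and 9.37 in 59A PDR8-S288c (replicates in order here and below). GSC2, its homolog for starvation and stress, gave 13.20 and 13.16 in wild type cultures against 13.11, 13.17 and 13.31 in 59A PDR8-S288c. In both genes the cultures with the S288c allele enclosed those of the wild type. RHO1, the GTPase that activates the synthase, had values of 10.31, 10.44 and 10.49 in wild type cultures against 10.46, 10.42 and 10.50 in 59A PDR8-S288c, again overlapping, with a log2 fold change of 0.05 (SE 0.06). FKS3, a homolog studied mainly in spore wall formation, was the exception in order. It had 6.73, 6.68 and 6.47 in wild type cultures against 6.76, 6.85 and 6.84 in 59A PDR8-S288c, so that the strains did not overlap, by a margin of 0.03. The difference came to 0.19 log2 units (SE 0.07, limma adjusted p = 0.226), and 0.11 without wild type replicate 3, the lowest culture. Near-identical stretches of FKS1 and GSC2 could share signal, which was not tested, since the probe sequences were not used here.

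The genes of beta-1,6-glucan, the branched polymer that anchors GPI mannoproteins, split by gene. KRE6 and KRE9, both needed for its synthesis, and SKN1, a homolog of KRE6, lay above the wild type in every culture measured, whereas KRE1, KRE5 and KNH1 overlapped. Of all features with 6 values, 13.5% lay above the wild type in this way. SKN1 had only 2 wild type values, from which 3 cultures stand apart more easily, and no share was computed for such features. KRE9, which encodes an O-glycosylated protein of the secretory pathway, gave 11.02, 11.01 and 10.76 in wild type cultures against 11.30, 11.16 and 11.27 in 59A PDR8-S288c. This was a log2 fold change of 0.31 (SE 0.08, limma adjusted p = 0.105), 1.24-fold, and 0.22 without the low wild type replicate 3. KRE6, which encodes a type II membrane protein of glucan assembly, gave 9.51, 9.42 and 9.50 in wild type cultures against 9.75, 9.74 and 9.62 in 59A PDR8-S288c. Here the lowest culture with the S288c allele was 0.12 above the highest wild type culture. The log2 fold change of KRE6 was 0.23 (SE 0.05, limma adjusted p = 0.0816), 1.17-fold. SKN1, with 2 wild type values, was at 8.58 and 8.69 in wild type cultures against 8.81, 8.82 and 8.76 in 59A PDR8-S288c. The difference came to 0.16 log2 units (SE 0.06, limma adjusted p = 0.217). None of these 3 genes passed the threshold. KNH1, a homolog of KRE9, had the opposite sign, at -0.13 (95% confidence interval -0.34 to 0.08), and KRE5, an endoplasmic reticulum protein related to glucosyltransferases, was at -0.01 (-0.15 to 0.12). KNH1 was -0.03 without wild type replicate 1, -0.22 without wild type replicate 2 and -0.07 without 59A PDR8-S288c replicate 3, and SKN1 was 0.10 without wild type replicate 1. KRE1, a GPI protein of the wall and the receptor of the K1 killer toxin, varied more between cultures of a strain (12.60 to 13.01 in the wild type) than between the strains, with 0.07 (-0.18 to 0.32).

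**Figure D2:**
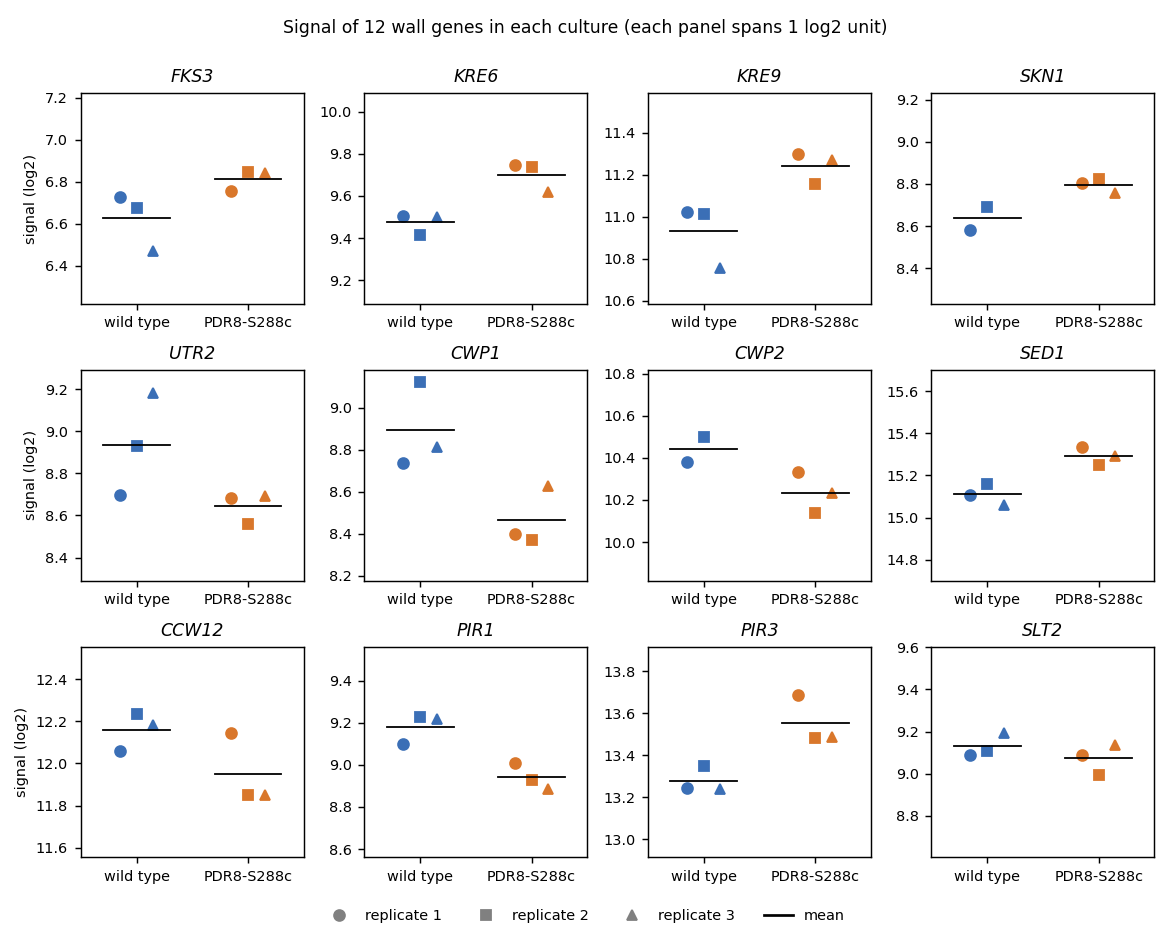
Signal (vertical axis, log2) in each culture of the 11 wall genes with an unadjusted p under 0.05 from limma, and of SLT2. Each panel spans 1 log2 unit around the gene's mean, symbols mark the replicate number and horizontal lines the mean of each strain; KRE6, KRE9, SED1 and PIR3 lie higher and CWP1 and PIR1 lower in all 3 cultures of 59A PDR8-S288c, while CCW12 and SLT2 overlap.

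Among the 7 chitin genes, 0 had an unadjusted p under 0.05 from limma, against 18.1% of all features. Of the 7, 3 were above 0 and 4 below. They comprise the synthases CHS1, which repairs the wall after division, CHS2, which builds the primary septum, and CHS3, which makes most of the chitin of the wall, together with CHS5, CHS6 and CHS7, which carry Chs3p to the surface, and the chitinase CTS1, which frees the daughter cell. CHS3 gave 8.80, 8.72 and 8.46 in wild type cultures against 8.72, 8.80 and 8.84 in 59A PDR8-S288c. Its log2 fold change of 0.13 (95% confidence interval -0.08 to 0.33) rested on wild type replicate 3 and was 0.02 without it. CHS5 gave 9.82 and 9.97 in wild type cultures against 9.94, 10.04 and 10.07 in 59A PDR8-S288c, a difference of 0.12 (-0.04 to 0.28) that was 0.05 without wild type replicate 1 and 0.20 without replicate 2. CTS1, with 7.85 and 8.09 against 8.04, 8.12 and 8.11, overlapped as well. In CHS1 a single culture stood apart, since replicate 1 of 59A PDR8-S288c was at 9.55 and the other 5 cultures were between 9.80 and 10.00. The difference of CHS1 was -0.06 with all cultures and 0.08 without that replicate. CHS2 was at 6.85 to 6.90 in wild type cultures against 6.81 to 6.93, and CHS7 at 7.75 and 7.83 against 7.69 to 7.74, with intervals of the difference from -0.13 to 0.10 and from -0.20 to 0.05. The 2 wild type values of CHS7 lay above the other 3. CHS6 stayed near background in either strain (5.59 to 5.74), with a difference of -0.05 (-0.19 to 0.10). Whether a difference in RNA would show at such a signal was not tested.

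Among the enzymes that tie the polymers together, 1 of 8 genes had an unadjusted p under 0.05 from limma, against 18.1% of all features. Crh1p and Utr2p join chitin to glucan in the growing wall, CRR1 is their homolog of the spore wall, and the Gas proteins elongate glucan chains, GAS1 in vegetative cells and GAS2 and GAS4 in spores. UTR2 gave 8.70, 8.93 and 9.18 in wild type cultures against 8.68, 8.56 and 8.69 in 59A PDR8-S288c. The strains were apart by only 0.006, and the spread within the wild type, 0.48, exceeded the difference of -0.29 (SE 0.11, limma adjusted p = 0.232), which was -0.17 without wild type replicate 3. CRH1, with 8.83 and 8.92 against 8.65, 8.80 and 8.84, overlapped between the strains and had a log2 fold change of -0.11 (95% confidence interval -0.28 to 0.06), which was -0.06 without 59A PDR8-S288c replicate 1 and -0.07 without wild type replicate 2. GAS1 varied among cultures of 59A PDR8-S288c, at 9.50, 9.05 and 9.16, around wild type values of 9.35, 9.19 and 9.48. For GAS5 the values were far closer together, 10.64 to 10.72 in wild type cultures against 10.66 to 10.79 in 59A PDR8-S288c. GAS3, whose product is less well known, was at 7.86 and 7.95 against 7.91 to 7.96. Among the genes of the spore wall, GAS4 stayed within 1 log2 unit of background in either strain, GAS2 was at 6.16 to 6.31 and 6.22 to 6.38, and CRR1 was at 6.94 to 7.06 over all cultures. Of 8 markers of sporulation, 5 were within 1 log2 unit of background. The others were brighter, NDT80 at 6.70 to 6.88 and DIT1 at 7.12 to 7.23 over all cultures measured. SPS100 was at 8.88 to 9.39 in wild type cultures against 8.47 to 9.73 in 59A PDR8-S288c.

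All 6 glucanases and related wall enzymes overlapped between the strains. Only 4 of them had 6 values, and of all features with 6 values 24.6% did not overlap. An unadjusted p under 0.05 from limma was found for 0 of the 6 genes, against 18.1% of all features. BGL2, the major endoglucanase of the wall, was at 12.53 and 12.49 in wild type cultures against 12.56, 12.50 and 12.49 in 59A PDR8-S288c, with an interval of the difference from -0.12 to 0.13. The exoglucanase gene EXG1 was at 12.97 to 13.27 in wild type cultures against 13.11 to 13.23 in 59A PDR8-S288c. SCW4 and SCW10 encode related soluble wall proteins of the glucanase family. SCW4 gave 14.64, 14.73 and 14.75 in wild type cultures against 14.74, 14.70 and 14.57 in 59A PDR8-S288c. SCW10 gave 9.59, 9.60 and 9.38 in wild type cultures against 9.51, 9.84 and 9.68 in 59A PDR8-S288c. Its log2 fold change was 0.16 (95% confidence interval -0.06 to 0.37), and 0.08 without 59A PDR8-S288c replicate 2, 0.09 without wild type replicate 3 and 0.24 without 59A PDR8-S288c replicate 1. Both genes overlapped between the strains. EXG2, an exoglucanase gene, was at 6.83 and 6.99 against 6.84 to 7.01. SCW11, which acts in daughter cell separation, stayed near background in either strain (5.86 to 6.13).

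The structural mannoproteins differed in both directions. Of the 8 measured genes, 2 were higher (SED1 and PIR3) and 4 lower (CWP1, CWP2, CCW12 and PIR1) in 59A PDR8-S288c at an unadjusted p under 0.05, where 9.99% of all features were higher and 8.1% lower, and none passed the adjusted threshold of limma. In a second list, of other mannoproteins and yapsins, 0 of 13 had an unadjusted p under 0.05. CCW14, a GPI protein of the inner wall, and PST1, a GPI protein that responds to wall stress, differed by -0.01 and -0.04. CCW14 was at 12.37 to 12.55 in wild type cultures against 12.35 to 12.54, and PST1 at 14.36 and 14.34 against 14.23 to 14.43. CWP1, a GPI mannoprotein placed at birth scars, gave 8.74, 9.12 and 8.81 in wild type cultures against 8.40, 8.37 and 8.63 in 59A PDR8-S288c. Its log2 fold change of -0.43 (SE 0.11, limma adjusted p = 0.105), 1.34-fold lower, was the largest of the 45 genes in size, and was -0.27 with slide position as a covariate. CWP2, a small GPI mannoprotein, gave 10.38 and 10.50 in wild type cultures against 10.33, 10.14 and 10.23 in 59A PDR8-S288c. The difference came to -0.20 log2 units (SE 0.07, limma adjusted p = 0.216). CWP1 and CWP2 are next to each other on chromosome XI of the reference genome. CCW12, a major GPI mannoprotein of the growing wall, overlapped: it had 12.06, 12.23 and 12.18 in wild type cultures against 12.15, 11.85 and 11.85 in 59A PDR8-S288c. Its difference was -0.21 (SE 0.09, limma adjusted p = 0.275), and replicate 1 of 59A PDR8-S288c lay with the wild type.

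SED1, the main GPI mannoprotein of stationary phase cells, gave 15.11, 15.16 and 15.06 in wild type cultures against 15.33, 15.25 and 15.29 in 59A PDR8-S288c. The cultures did not overlap, and the log2 fold change was 0.18 (SE 0.05, limma adjusted p = 0.103). SED1 was the only 1 of the 45 genes with values above 15, within 1 log2 unit of saturation, and an effect of saturation on the size of this difference was not tested.

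PIR1 and PIR3 encode homologous proteins with internal repeats that are bound to glucan through an alkali-sensitive bond, and they are neighbors on chromosome XI, transcribed away from each other by their locus names YKL164C and YKL163W. Their differences had opposite signs. PIR1 gave 9.10, 9.23 and 9.22 in wild type cultures against 9.01, 8.93 and 8.89 in 59A PDR8-S288c. The difference came to -0.24 log2 units (SE 0.06, limma adjusted p = 0.0809). PIR3 gave 13.25, 13.35 and 13.24 in wild type cultures against 13.69, 13.48 and 13.49 in 59A PDR8-S288c. The difference came to 0.27 log2 units (SE 0.07, limma adjusted p = 0.0908). In neither gene did the strains overlap. Within each culture the log2 ratio of PIR3 to PIR1 was 4.15, 4.12 and 4.02 in wild type cultures against 4.68, 4.56 and 4.60 in 59A PDR8-S288c, a difference of 0.51 that was several times the SD within the strains (0.07 and 0.06, n = 3 each). The exact permutation test gave p = 0.1 (two-sided), the smallest that 3 cultures against 3 allow, and p = 0.8 after Benjamini-Hochberg adjustment over 8 pairs of related genes. Neither p could have fallen under 0.05 with so few cultures, so this test cannot decide whether the ratio differs. Among the other 7 pairs the ratio differed by -0.35 (KNH1 to KRE9) to 0.26 (CWP2 to CWP1), and 6 of them had only 2 wild type values. The pair of PIR1 and PIR3, and SKN1, CWP2, CCW12, SED1 and PIR1 as single genes, were picked out after their values had been seen.

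**Figure D3:**
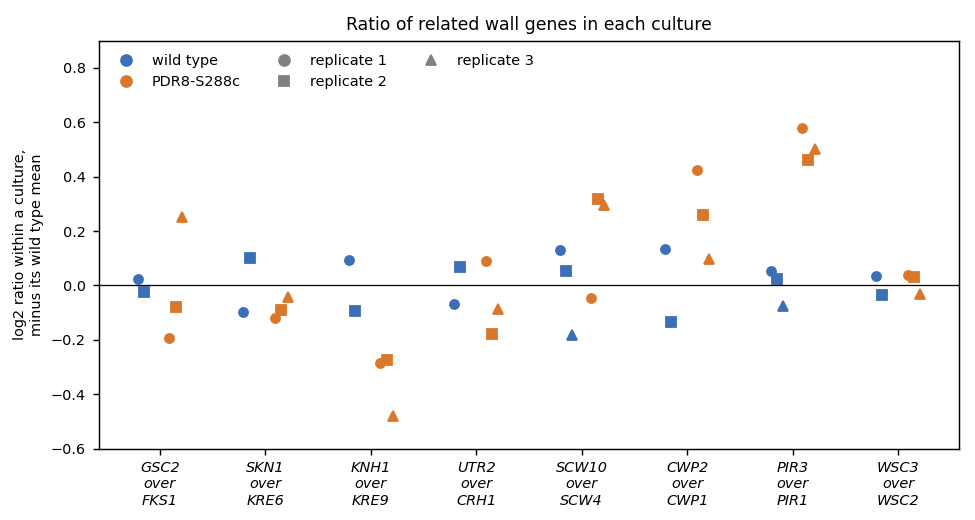
Change of the log2 ratio of 8 pairs of related wall genes within each culture (vertical axis, minus the wild type mean of that ratio). Points are cultures, blue for the wild type and orange for 59A PDR8-S288c, with symbols for the replicate number; in the ratio of PIR3 to PIR1 all 3 cultures of 59A PDR8-S288c lie above the 3 of the wild type, while SCW10 to SCW4 and WSC3 to WSC2 overlap.

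Of the 6 signaling genes, 0 had an unadjusted p under 0.05 from limma, against 18.1% of all features, and their differences ran from -0.15 to 0.02. SLT2, the MAP kinase of wall integrity, gave 9.09, 9.11 and 9.19 in wild type cultures against 9.09, 8.99 and 9.14 in 59A PDR8-S288c. Its log2 fold change was -0.06 (95% confidence interval -0.18 to 0.07). RLM1, the transcription factor below it, gave 9.55, 9.60 and 9.63 in wild type cultures against 9.33, 9.57 and 9.46 in 59A PDR8-S288c. Its log2 fold change was -0.14 (-0.29 to 0.02), and -0.08 without 59A PDR8-S288c replicate 1. Both overlapped between the strains. Among the sensors, WSC2 had the largest difference, with 7.42 and 7.54 in wild type cultures against 7.28, 7.34 and 7.39 in 59A PDR8-S288c (-0.15, SE 0.06, limma adjusted p = 0.281), without overlap, and -0.09 without wild type replicate 2. MID2 was at 9.29 to 9.38 in wild type cultures against 9.20 to 9.37, and WSC3 at 7.37 to 7.63, a range that held all 3 cultures of 59A PDR8-S288c. MID2, WSC3 and WSC4 differed by -0.07, -0.05 and 0.02. WSC4 varied most within 59A PDR8-S288c, from 8.30 to 8.71.

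Of 76 other genes of the wall, listed by role, 72 were measured. Of these, 0 passed an adjusted p under 0.05 from limma, and 8 (6 higher and 2 lower, 11.1%) had an unadjusted p under 0.05, against 18.1% of all features, 9.99% higher and 8.1% lower. Their median log2 fold change was 0.0072. LRG1, a GTPase-activating protein of Rho1p, had the largest difference, 0.39 (SE 0.18, limma adjusted p = 0.321), which rested on replicate 1 of 59A PDR8-S288c at 7.61 while the other 5 cultures were at 6.63 to 6.93. SMI1, a regulator of glucan synthesis, followed with -0.35 (SE 0.20, limma adjusted p = 0.398). By role, 3 of 18 genes of glucan and wall assembly, 0 of 12 of chitin supply, 0 of 13 mannoproteins and yapsins, 4 of 22 of the integrity pathway and 1 of 7 of daughter cell separation had an unadjusted p under 0.05. The plot of the cumulative distributions sets the 3 sets side by side.

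**Figure D4:**
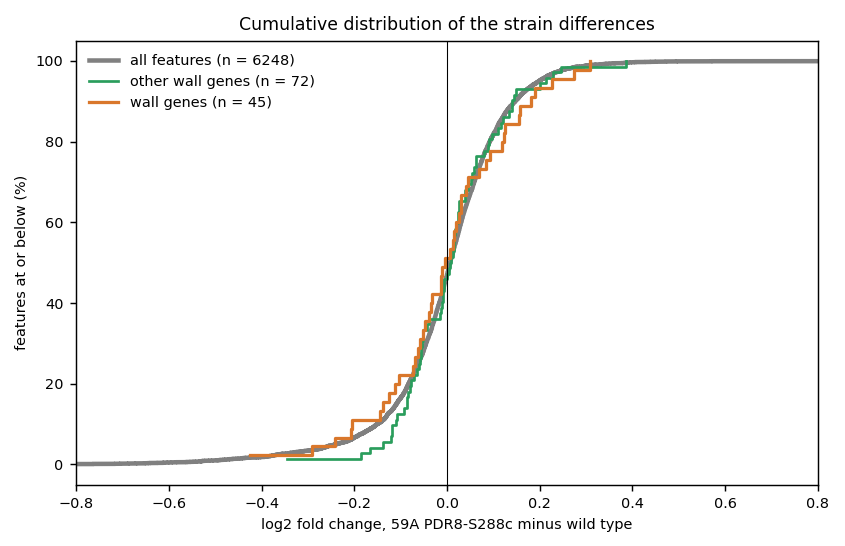
Share of features (vertical axis, %) at or below each log2 fold change (horizontal axis, 59A PDR8-S288c minus wild type) for all 6248 features, the 72 other wall genes and the 45 wall genes. The medians were 0.0065, 0.0072 and -0.0047.

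The spread between cultures of a strain differed from gene to gene. The median SD over the 45 genes was 0.08 in the wild type strain and 0.07 in 59A PDR8-S288c, where it was 0.07 and 0.06 over all features. A range above 0.3 log2 units between cultures of a strain was found for 8 of the 28 wall genes measured on all arrays (28.6%) and for 15.3% of all such features. These 8 were UTR2, KRE1, CWP1 and CHS3, widest in the wild type, and GAS1, CHS1, WSC4 and SCW10, widest in 59A PDR8-S288c. In 22 of the 28 genes the range within at least 1 strain exceeded the difference between the strains, as it did in 85.5% of all such features. Wild type replicate 2 was the lowest wild type culture in 3 of the 28 genes and the highest in 13, whereas over all features it was the lowest in 29.2% and the highest in 32.1%. Other cultures departed from the shares of all features as well. Wild type replicate 1 was the lowest of its strain in 46.4% of the 28 genes against 33.6% of all features. For 59A PDR8-S288c replicate 2 the share as highest of its strain was 17.9% against 30.4%.

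**Figure D5:**
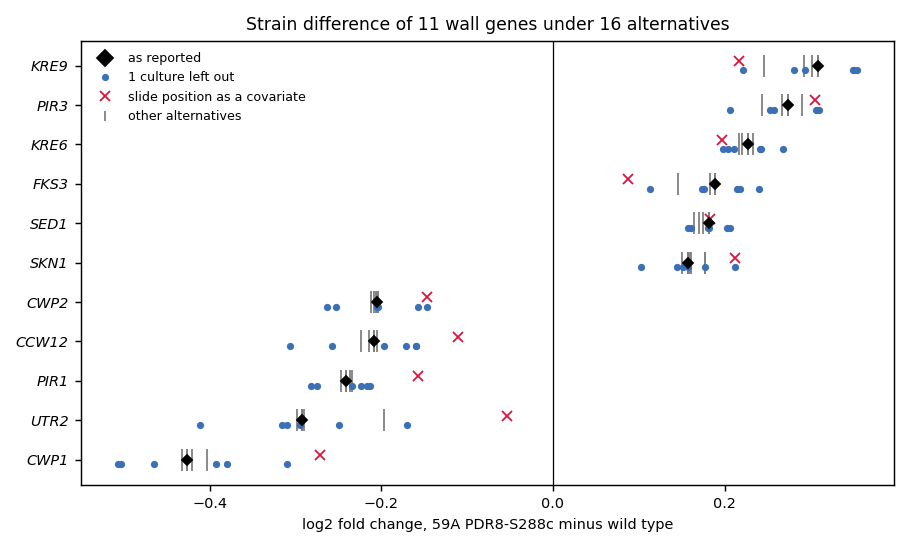
Log2 fold change (horizontal axis, 59A PDR8-S288c minus wild type) of the 11 wall genes with an unadjusted p under 0.05 as reported (diamonds) and under 16 alternatives of the processing. The values of UTR2 spread most, from -0.41 to -0.05.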

How the data were processed

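The authors hybridized Cy3-labeled cRNA of 6 cultures to Agilent arrays on a single slide and scanned them with GenePix. They deposited log2 spot-median intensities after quantile normalization with limma under R 2.13.1. The methods describe a normalization over the whole array data set and do not say whether it held these 6 arrays. The labels name the cultures as biological replicates. The deposited log2 values were used as they are. Of 6271 probes, the platform annotation gives a single symbol for 5220, and the remaining 1051 are unnamed here (0 carry several). The brightest probe represented each of 22 genes with several, none of them a wall gene. Strain differences were fitted by limma 3.58.1 (lmFit, then eBayes without a trend, robust estimation or blocks) under R 4.3.3, and p-values were Benjamini-Hochberg adjusted over 6248 features. The log2 ratios of related genes were compared by an exact permutation test (scipy 1.17.1), and plots were drawn with matplotlib 3.10.9. Chromosomes and neighbors come from the RefSeq table of the S288C reference genome. Members, gene lists and role groups were chosen with earlier results of these data known. Given with the value of every culture were, per role group, the 2 genes with the largest change above background, SLT2 and RLM1; others were added after their values were seen. Precision is limited by the number of arrays, 3 per strain. For 2 samples of 59A PDR8-S288c the replicate numbers in title and description disagree, and those of the titles were taken. The alternatives were 2 rescalings, 2 filters, 2 variance models, averaging the probes of each gene, 2 replicate blocks, slide position and leaving out each culture.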

Additional observations from a re-analysis of the deposited data

How the results depend on the processing

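No wall gene passed an adjusted p under 0.05 from limma under any of the 16 alternatives, the lowest adjusted p being 0.0636 for PIR1 with array weights, so the counts of wall genes higher and lower were 0 throughout. The median log2 fold change of the wall genes stayed between -0.024 and 0.0055 over the alternatives. Of the 45 wall genes, 28 kept their sign under every alternative that gave a value and 17 did not, all 17 with differences of at most 0.13 in size. The 11 genes with an unadjusted p under 0.05, chosen for differences large against the spread, were among the 28. Of the 15 genes named by rule, signs turned for RHO1 without wild type replicate 1 (-0.0041), for CHS3 with slide position as a covariate (-0.018) and for SCW4 with slide position (0.031) and without 59A PDR8-S288c replicate 3 (0.019), each far from the threshold. Without single cultures RHO1 ran from -0.0041 to 0.085 and SCW4 from -0.068 to 0.019. The number of features past the threshold, 96, rose to 152 when the variance was trended and robust and to 194 when arrays were weighted (95 higher, 99 lower), and was 19 with the replicate number of the titles as a replicate block, 3 with that of the descriptions, 6 with slide position, and 3 to 90 without single cultures (13 without wild type replicate 1, 3 without its replicate 2, 3 without 59A PDR8-S288c replicate 1, 3 without its replicate 2 and 48 without its replicate 3); the cause was not tested. Deviations of cultures with the same title number correlated at 0.17, 0.34 and -0.43 over 4190 features. Those with the same description number correlated at -0.05, -0.69 and -0.43. Deviations from a strain mean sum to 0 over 3 cultures, so these values cannot decide whether either numbering pairs the cultures. Wild type replicates 2 and 3 were at slide positions 1 and 2, and wild type replicate 1 and all cultures of 59A PDR8-S288c at 5 to 8. Strain and slide position were thus partly confounded. Adding slide position leaves the strain contrast to depend on 1 culture of the wild type. Of the 11 genes with an unadjusted p under 0.05, CWP1 was then -0.27, UTR2 -0.05, FKS3 0.09, CCW12 -0.11 and PIR1 -0.16. CWP2 was -0.15, KRE9 0.22 and KRE6 0.20. SED1, SKN1 and PIR3 were 0.18, 0.21 and 0.31, against 0.18, 0.16 and 0.27 without slide position. For the genes with 2 wild type values, leaving out wild type replicate 1 or 2 leaves 1, which is assumed to vary like the others.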
